A study of Mus musculus with 2 samples.

Results

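The 10 genes described here are regulators of the primitive streak and of the mesoderm that forms from it: T, Mixl1, Gsc, Mesp1, Mesp2, Evx1, Wnt3, Tbx6, Msgn1 and Lhx1. They were taken as a named list, out of 21467 protein-coding genes with a known strand on mm10. NANOG is a homeobox factor that maintains pluripotency, and its binding sites were mapped by chromatin immunoprecipitation and sequencing (ChIP-seq) in E14TG2a.4. E14TG2a.4 is an embryonic stem cell line from a male mouse (129/Ola), with a labelled age of 3.5 days. There was 1 group, with 2 biological replicates of the line and 1 antibody, so no conditions were compared and no test between groups was possible. Peak lists hold no expression values, so the label of the line was not checked against marker genes. For each gene, a peak was counted when its summit lay inside the gene or within 50 kb of the transcription start site (TSS). The peaks came from the authors' optimal set, which has 15891 regions that passed a test of reproducibility (irreproducible discovery rate, IDR). A peak of this set need not stand in both replicates: 84.7% of them overlapped a region in the mm10 list of each replicate. Across the windows of the 10 genes there were 12 summits of the optimal set.

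The primitive streak is the region of the early embryo where epiblast cells leave the epithelium and become mesoderm and endoderm. WNT and Nodal signals start it, T-box and homeobox factors act in its cells, and basic helix-loop-helix (bHLH) factors such as the MESP proteins and mesogenin act in the mesoderm that leaves it. Embryonic stem cells stand before this step, and NANOG is best known there for holding the pluripotent state.

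NANOG peaks were found at 7 of the 10 genes, against 48.4% of all 21467 genes by the same rule, and a single gene, Msgn1, carried a peak near the top of the whole series. Msgn1, which encodes the bHLH factor mesogenin of the presomitic mesoderm, had its highest peak 7.68 kb upstream, where the signal was 265 and the rank 272 of 15891. Gsc, which encodes the homeobox factor goosecoid of the anterior streak, had the next, with signal 118 and rank 1706. The peak shared by Mesp1 and Mesp2 followed with signal 44.1, and the other 9 summits, including all 3 at T (Brachyury), lay below the median signal of all optimal peaks, 40.2. No optimal summit lay in the windows of Mixl1, Tbx6 and Lhx1. The signal is the authors' own enrichment value per peak, of unstated scale, and it serves here to rank peaks within a list.

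The sequences of 4 of these sites are shown because they carry the strongest peak of the genes (Msgn1), the next (Gsc), the site shared by both Mesp genes and the T site nearest to its TSS. The genome sequence used was mm9, so the windows are those of the authors' series-level mm9 peaks at these genes. Each runs over 300 bp around the midpoint of the peak region, on the plus strand of mm9, and the midpoint is not a summit. Capitals mark matches to the 8 motifs searched, which are spelled out further on. The Msgn1 window is chr12:11223395-11223694, the Gsc window chr12:105671495-105671794, the Mesp window chr7:86916644-86916943 and the T window chr17:8622832-8623131.
Msgn1, 7.79 kb upstream of its mm9 TSS: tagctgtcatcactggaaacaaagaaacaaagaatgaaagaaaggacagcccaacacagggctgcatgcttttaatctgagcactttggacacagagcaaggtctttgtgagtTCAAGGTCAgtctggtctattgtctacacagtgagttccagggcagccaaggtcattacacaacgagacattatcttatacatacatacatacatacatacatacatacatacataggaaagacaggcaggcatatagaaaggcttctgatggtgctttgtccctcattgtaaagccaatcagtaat
Gsc, 39.9 kb downstream: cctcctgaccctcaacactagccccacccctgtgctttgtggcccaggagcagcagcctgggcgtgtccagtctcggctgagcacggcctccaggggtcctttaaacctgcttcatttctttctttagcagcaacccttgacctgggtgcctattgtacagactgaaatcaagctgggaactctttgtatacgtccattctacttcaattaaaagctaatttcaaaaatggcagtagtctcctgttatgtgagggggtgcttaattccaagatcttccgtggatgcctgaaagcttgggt
Mesp1 and Mesp2, 21.9 kb downstream of Mesp1: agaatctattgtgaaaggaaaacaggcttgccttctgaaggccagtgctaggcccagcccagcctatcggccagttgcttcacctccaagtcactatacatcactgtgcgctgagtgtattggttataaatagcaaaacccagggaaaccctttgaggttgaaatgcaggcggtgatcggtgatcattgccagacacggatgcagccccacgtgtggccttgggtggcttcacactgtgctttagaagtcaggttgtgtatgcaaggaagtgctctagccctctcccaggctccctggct
T, 4.31 kb upstream: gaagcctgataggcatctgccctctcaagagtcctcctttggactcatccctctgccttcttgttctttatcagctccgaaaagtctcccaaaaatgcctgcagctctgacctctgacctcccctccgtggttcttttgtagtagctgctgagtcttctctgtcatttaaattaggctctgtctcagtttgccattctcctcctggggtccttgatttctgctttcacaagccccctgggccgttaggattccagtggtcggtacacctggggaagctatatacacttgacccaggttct

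The Msgn1 window was the poorest of the 4 in G and C, at 41.3%, against 50.3% for Gsc, 52.3% for the Mesp site and 50.7% for T. A run of repeated cata in this window counts in that share. It also holds the single capitalised match among them, TCAAGGTCA at bases 114 to 122 of the window. These letters are the consensus for ESRRB, an orphan nuclear receptor of the pluripotency network. Repeated sequence was not masked, and whether this match lies in it, or is bound by ESRRB, was not tested.

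Most peaks of the 10 genes had middling or low signals when set beside those of all genes. At least 2 summits were present at 4 of the 10 genes and at 22.8% of all genes, and at least 3 at 2 of the 10 and at 10.8%. These counts include weak summits, such as a Gsc summit of signal 10.2 and overlapping Wnt3 regions of signals 17.2 and 11.8. All genes were counted by the same rule. Over genes with a summit, the median of the highest signal per gene was 44.1 for the 7 and 52.0 for all genes. The peak that Mesp1 and Mesp2 share has this value of 44.1 and counts for both genes. By highest signal, 326 genes (1.52%) reached the level of Msgn1 and 1871 (8.72%) that of Gsc. For T, Mesp1, Mesp2, Evx1 and Wnt3, between 28.4% and 35.4% of all genes reached theirs. The genes were chosen with earlier results known, so these shares are descriptions and were not tested.

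**Figure D1:**
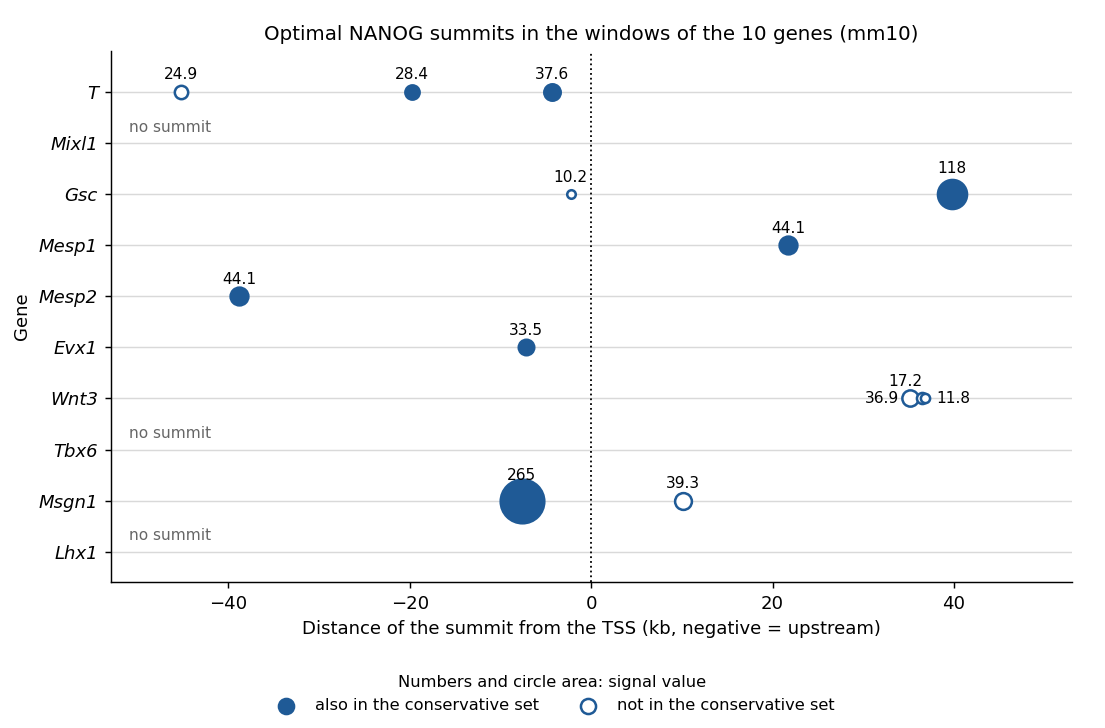
Each row is 1 gene and each circle 1 optimal NANOG summit, placed by its distance from the TSS in kb on mm10 (negative is upstream). Circle area and number give the signal value, and filled circles are also in the conservative set. The largest circles are Msgn1 (265) and Gsc (118), 3 rows have no summit, and the 3 Wnt3 summits lie side by side inside the gene.

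Wnt3 encodes the WNT ligand that is needed for the streak to form. On mm10 the gene spans chromosome 11, 103774175 to 103818021, on the plus strand, and all 3 of its summits lay inside it. The highest, in the region 103809191 to 103809554, was 35.2 kb downstream of the TSS, with signal 36.9 (rank 8761). In the relaxed lists, which hold 300000 ranked regions per replicate, it had signal 31.4 and rank 7945 in replicate 1, and signal 7.72 and rank 33658 in replicate 2. On these lists it stood higher in replicate 1 than in replicate 2. The shorter mm9 list of replicate 2 nevertheless held the site, with enrichment 6.69, a q-value of 0.0668 and rank 4948 of 6618. The other summits had signals of 17.2 and 11.8, lay 241 bp apart in overlapping regions, and were matched by the same relaxed region in each replicate (ranks 50284 and 36183). None of the 3 was in the authors' conservative set, the stricter of the reproducible sets. The TSS of Wnt9b, another WNT ligand gene, was nearer to each of them than that of Wnt3, at 34.1 kb to 35.7 kb.

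T encodes Brachyury, the T-box factor of the whole streak and of the notochord. The gene lies on chromosome 17, 8434423 to 8442496, on the plus strand, and its 3 summits were all upstream. The nearest, in 8429935 to 8430298, lay 4.31 kb upstream with signal 37.6 (rank 8599). Its relaxed ranks were 11166 in replicate 1 (signal 23.5) and 10808 in replicate 2 (signal 10.01), which are close. In the authors' separate mm9 lists, replicate 1 had this site (enrichment 9.76) and replicate 2 had no peak in the window of T. The next, 19.8 kb upstream (8414460 to 8414823), had signal 28.4, with ranks of 14121 and 21632. The farthest, 45.2 kb upstream (8389082 to 8389445), had signal 24.9, with ranks of 15798 and 26422, and was the one of the 3 outside the conservative set. Predicted genes were nearer than T by their TSS: LOC115486424 for the first pair, at 2.54 kb and 18.0 kb, and Gm46592 for the last, at 41.4 kb. The 45.2 kb summit was the member summit closest to the 50 kb limit from within. Just outside it lay further summits of T at 62.5 kb upstream (signal 18.8), Gsc at 65.4 kb upstream (33.6) and Wnt3 at 66.9 kb downstream (40.3).

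Evx1 encodes a homeobox factor of the posterior streak. The gene lies on chromosome 6, 52313498 to 52318389, on the plus strand, and had 1 optimal summit, 7.17 kb upstream in 52306147 to 52306510, with signal 33.5 (rank 9718). Replicate 1 gave this site signal 22.9 and rank 11512, and replicate 2 gave it 8.95 and rank 16824. Further regions near Evx1 stood higher in replicate 2 than in replicate 1 by rank. Among its 15891 highest regions, replicate 2 had others at 42.3 kb upstream (signal 16.4, rank 4035), 4.48 kb downstream (13.0, rank 5734) and 1.29 kb downstream (10.2, rank 10147). All 3 ranked above the optimal site in that replicate. In replicate 1 the overlapping regions ranked 200410 (signal 5.80), 29783 (11.2) and 22416 (13.2), and none of the 3 was in the optimal set. The mm9 lists divided them otherwise. Replicate 1 had peaks at 1.39 kb (enrichment 6.18, q-value 0.1525) and 4.46 kb (4.55, q-value 0.7032) downstream. Replicate 2 had one at 42.2 kb upstream (5.25, q-value 0.1695). All 3 mm9 lists also had a peak near the distance of the optimal site. It lay 7.13 kb upstream in the series-level list (q-value 0.0075), 7.19 kb in replicate 1 (0.0361) and 7.34 kb in replicate 2 (0.2922). The TSS nearest to the region at 42.3 kb was that of Hoxa13, the last gene of the neighbouring Hoxa cluster.

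Gsc lies on chromosome 12, 104471209 to 104473236, on the minus strand. Its high peak, in 104433368 to 104433606, was 39.8 kb downstream of the TSS. Replicate 1 gave it signal 79.2 and rank 2090, and replicate 2 gave it 43.3 and rank 843. It was high in both, and it was in the conservative set. The TSS of Serpina3n, a serine protease inhibitor gene, was nearer to it, at 26.8 kb. A weak summit lay 2.25 kb upstream of Gsc (104475305 to 104475668, signal 10.2, rank 15636), with Gsc as its nearest gene. It overlapped a region of rank 41701 in replicate 1 and none of the 300000 regions of replicate 2. Further regions of replicate 2 at 20.6 kb downstream (rank 8218) and 36.8 kb upstream (rank 15051) were not in the optimal set.

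Msgn1 is a short gene, chromosome 12, 11208382 to 11208948, on the minus strand. Its high peak lay in 11216463 to 11216769. Replicate 1 gave it signal 191 and rank 274, and replicate 2 signal 71.3 and rank 299, so both placed it at almost the same height. It was in the conservative set, and Msgn1 had the nearest TSS. A second summit, 10.1 kb downstream (11198626 to 11198989), had signal 39.3 (rank 8133). For this one the replicates parted, with rank 8322 in replicate 1 and 45085 in replicate 2, and it was not in the conservative set. Replicate 2 had a separate region 11.1 kb downstream at rank 6134, which no region of replicate 1 overlapped. Beyond the window, the next optimal summit was 406 kb upstream, so the 2 summits stood alone.

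Mesp1 and Mesp2 encode related bHLH factors, Mesp1 of the earliest heart and head mesoderm and Mesp2 of the presomitic mesoderm. Their TSSs lie 17137 bp apart on chromosome 7, Mesp1 (79792241 to 79793590) on the minus strand and Mesp2 (79810727 to 79813431) on the plus strand. They shared 1 summit, in 79771732 to 79772095, inside the gene Wdr93. It lay 21.7 kb downstream of the TSS of Mesp1, its nearest gene, and 38.8 kb upstream of that of Mesp2. Its signal was 44.1 (rank 7093), with rank 7437 (signal 33.1) in replicate 1 and 24237 (signal 8.27) in replicate 2, and it was in the conservative set. Replicate 2 held a region between the genes, 9.01 kb upstream of Mesp1 and 8.13 kb upstream of Mesp2 (rank 14771), and another 28.0 kb downstream of Mesp1 (rank 8755). No region of replicate 1 overlapped either.

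Mixl1, Lhx1 and Tbx6 had no optimal summit. Mixl1 encodes a paired-type homeobox factor of the streak (chromosome 1, 180693043 to 180697034, minus strand), and its nearest optimal summit was 126 kb downstream. Its best relaxed regions ranked 60101 in replicate 1 and 26042 in replicate 2, at different places. Lhx1 encodes a LIM homeobox factor (chromosome 11, 84517975 to 84525534, minus strand), and its nearest optimal summit was 248 kb downstream. Replicate 1 had a region 0.534 kb upstream of its TSS with signal 15.7 and rank 17777, and the best region of replicate 2 was elsewhere, 37.8 kb upstream at rank 17322. Tbx6, the T-box gene of the paraxial mesoderm (chromosome 7, 126781483 to 126785548, plus strand), had its nearest optimal summit 306 kb upstream. In replicate 2 it had 2 of the 15891 highest regions, at 21.2 kb and 26.8 kb downstream (ranks 9697 and 14426), nearest to Aldoa and Tlcd3b, and no region of replicate 1 overlapped them. The best region of replicate 1 in that window ranked 37256. None of the 3 genes had a site that stood high in both replicates. Read depth is unknown here, so weak binding at these genes was not detectable beyond these ranks.

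**Figure D2:**
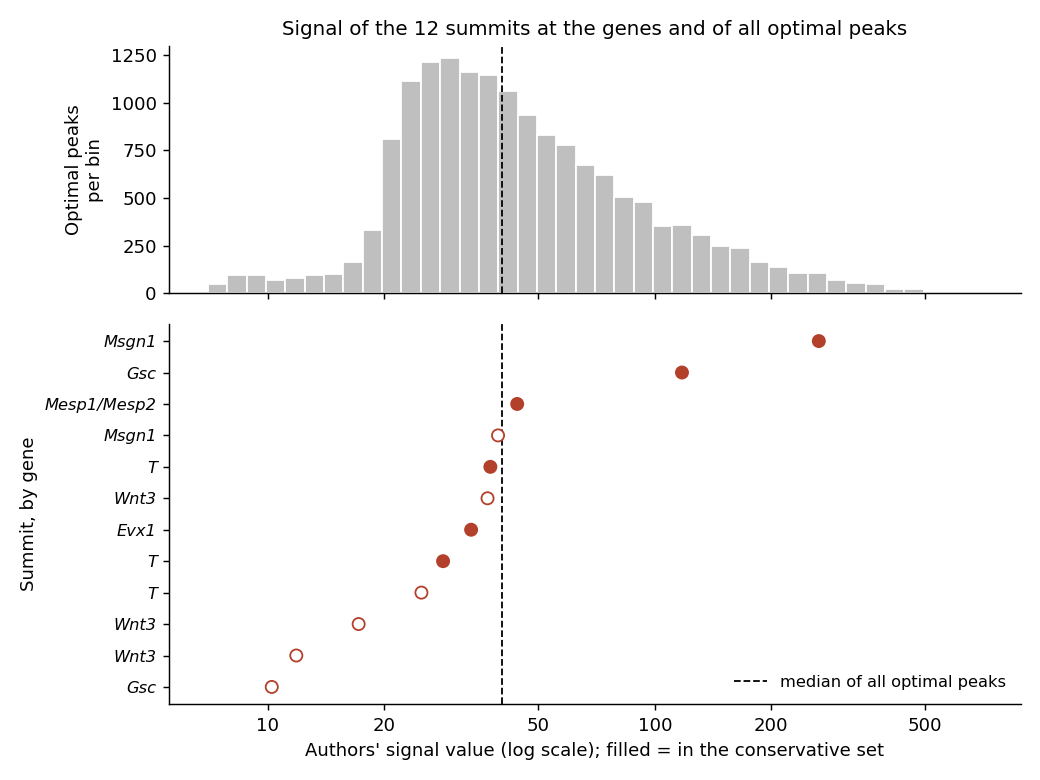
The upper panel counts all 15891 optimal peaks by signal value (log axis), and the lower panel places the 12 summits at the genes on the same axis, filled where they are in the conservative set. The dashed line is the median of all optimal peaks, 40.2, and 3 of the 12 summits lie to its right.

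Most of the 12 summits had partners in both replicates, but few were high in both. A relaxed region of each replicate overlapped 11 of the 12 by at least 1 bp, against 84.7% of all optimal peaks. With the 15891 highest regions of each replicate in place of the whole lists, 3 of the 12 were overlapped in both, against 50.4% of all optimal peaks. These 3 were the high peaks of Msgn1 and Gsc and the T site at 4.31 kb. Taken alone at that depth, replicate 1 covered 9 of the 12 and 86.3% of all optimal peaks, and replicate 2 covered 3 of the 12 and 54.6% of all. Replicate 1 thus covered more than replicate 2 over all optimal peaks too. The conservative set held 6 of the 12, against 56.7% of all optimal peaks. These were the high peaks of Msgn1 and Gsc, the Mesp site, the Evx1 site and the nearer pair at T. The median signal of the 6 was 40.8, and that of the 6 outside was 21.0. All of these sets were derived from the same 2 libraries, so a shared site is in part built in.

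**Figure D3:**
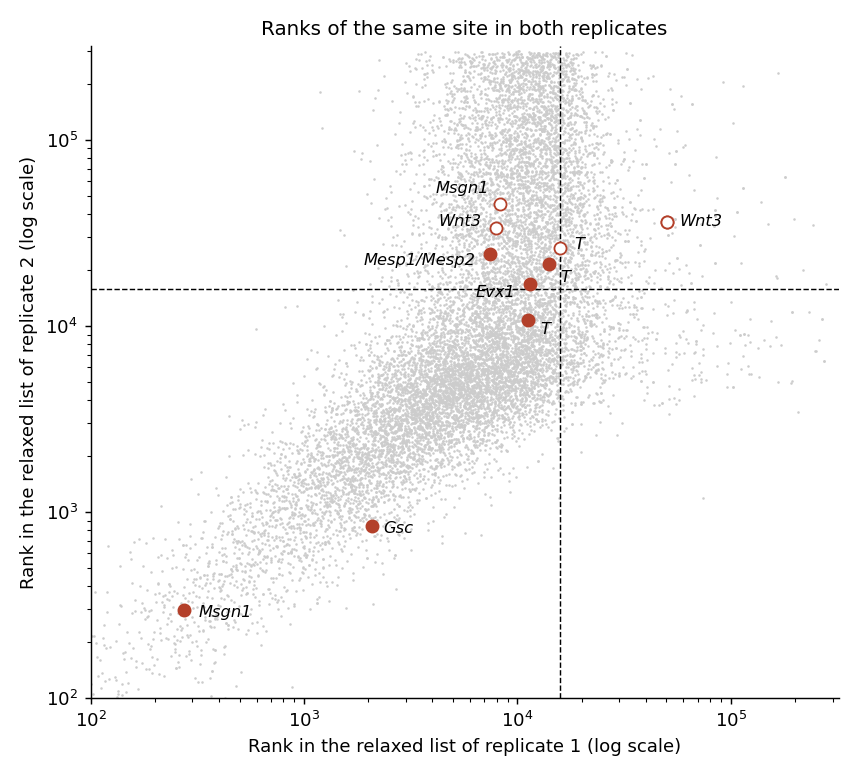
Each point is an optimal peak that overlaps a region of both lists, placed by the rank of the overlapping region in the relaxed list of replicate 1 (x axis) and of replicate 2 (y axis), both on log scales from rank 100. Grey points are the 13341 optimal peaks with both ranks at 100 or above, and coloured points are the 11 summits at the genes that have both ranks, with 2 of Wnt3 on the same point and filled points in the conservative set. Dashed lines mark rank 15891, and Msgn1, Gsc and 1 site of T lie inside both.

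The number of the 10 genes with a peak was 6 or 7 in the mm10 lists and ranged from 4 to 8 in the mm9 lists. In the conservative set 6 of the 10 genes had a peak, against 33.7% of all genes, and Wnt3 was the one lost. The highest regions of replicate 1 gave 7 of 10 (48.5% of all genes), the same 7 genes as the optimal set. Those of replicate 2 also gave 7 of 10 (54.0% of all genes), but with Tbx6 and without Wnt3. All 12 pairs of a gene and a top region without an optimal partner came from replicate 2, and none from replicate 1. Mixl1 and Lhx1 had no peak in any of these 4 mm10 lists.

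On mm9, where the authors' lists hold broader regions and were compared only with mm9 genes, the same 7 genes had a peak in the series-level list, against 45.2% of 22238 genes. The list of replicate 1 (22082 peaks) gave 8 of 10, against 61.6% of all genes, and the shorter list of replicate 2 (6618 peaks) gave 4 of 10, against 28.2%. Those 4 were Gsc, Evx1, Wnt3 and Msgn1, with Evx1 present through peaks with q-values of 0.1695 and 0.2922. The enrichment, the authors' ratio per peak, was 34.6 for Msgn1 at 7.79 kb upstream (rank 184 of 13341) and 12.6 for Gsc at 39.9 kb downstream (rank 2778). Replicate 1 gave these sites 70.2 and 25.7, and replicate 2 gave them 24.8 and 13.4. They were thus the 2 highest sites of the 10 genes in each of the 3 mm9 lists. The other sites of the series-level list had enrichments from 4.20 to 6.71. Among them were a Gsc site 20.2 kb downstream (4.87) and a Msgn1 site 13.8 kb upstream (4.20), distances at which the optimal mm10 set had none. The mm9 annotation placed the Mesp site in an intron of Wdr93, the Wnt3 site in an intron of Wnt3, and the other sites of the series-level list between genes. The mm9 list of replicate 1 had a peak 0.695 kb upstream of Lhx1, with enrichment 6.51 and a q-value of 0.2586. Mixl1 and Tbx6 had none in any mm9 list.

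**Figure D4:**
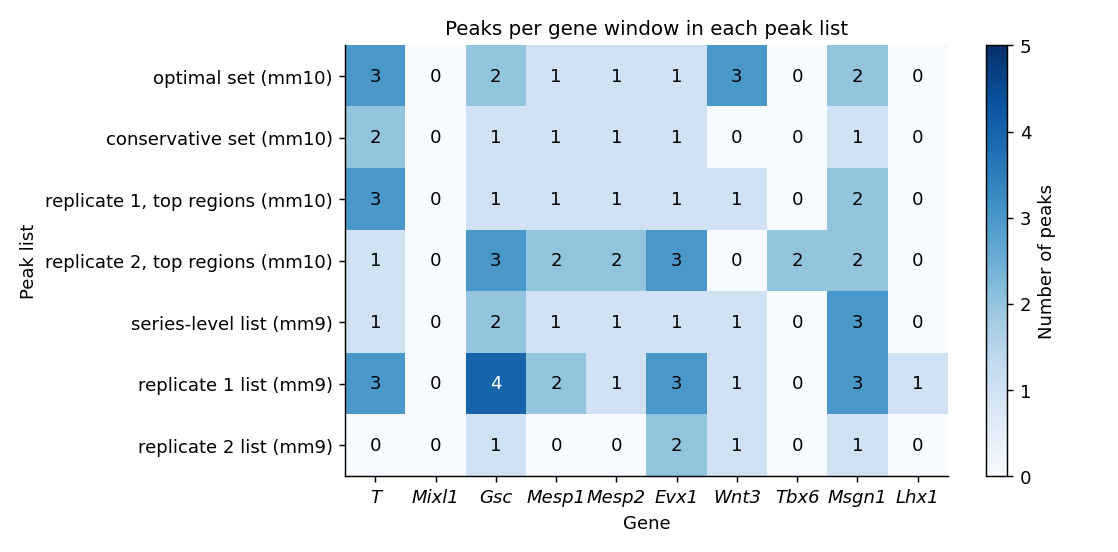
Rows are 7 of the authors' peak lists, columns the 10 genes, and each cell gives the number of peaks whose summit (mm10) or midpoint (mm9) lay in the window of the gene. Mixl1 has 0 in every row, while Msgn1, Gsc and Evx1 have at least 1 in every row.

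The share of these sites with a motif around the region midpoint was near that of all peaks. The midpoint is not a summit. On mm9 that of the strongest Msgn1 site was 7.79 kb upstream of the TSS, and the mm10 summit was 7.68 kb upstream. The 100 bp searched at that site may therefore leave out the summit. The search covered both strands of 100 bp around the midpoints of the 9 series-level mm9 peaks at the genes, for TAATGG (a homeodomain site as bound by NANOG), ATGCAAAT (the octamer of OCT factors), CCATTGT (SOX factors), TCAAGGTCA (ESRRB), CTTTGAT (TCF and LEF, the factors of WNT signalling), TCACACCT (T-box factors), AATCCACA (FOXH1, a partner of Nodal signalling) and GGGTGTGG (KLF factors). None of these 8 motifs contains another. At least 1 was present in 2 of the 9 windows and in 21.1% of the windows of all 13341 peaks. The matches were the ESRRB motif in the strongest Msgn1 site, found in 1.38% of all windows, and the octamer in the Msgn1 site 13.8 kb upstream, found in 2.33%. Over the whole peak regions, 5 of 9 had a match, against 71.3% of all. The homeodomain motif was then present in 4 of 9, against 34.9% of all, and the T-box motif in 0 of 9, against 4.53%. Whole regions differ in width, which was not matched here, and a wider region has more room for a match. A match is a run of letters in a window and does not show a bound site. Repeated sequence was not masked in the search, and whether a match lies in it was not tested.

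Further genes of the streak, the mesoderm and the definitive endoderm are given for comparison, from a list of 40 that was chosen with earlier results known. Of these, 25 had an optimal summit by the same rule (62.5%, against 48.4% of all genes). In the conservative set 19 had one (47.5%, against 33.7% of all genes). The median of the highest signals of the 25 was 51.2, against 52.0 for all genes with a summit. Summits were counted for the 40 by window alone, and any nearer TSS of another gene is not given for them. Lefty2, an antagonist of Nodal, had the highest at 318 (31.8 kb downstream, rank 153), and it was the one of the 40 above Msgn1. Cdx4, a caudal-type homeobox gene, followed with 236 at 9.49 kb upstream, and Wnt8a, a WNT ligand of the streak, with 176 at 13.1 kb downstream. Hhex, a homeobox gene of the anterior endoderm, had 138, Apln, the ligand of the apelin receptor, had 114, and Cdh2 (N-cadherin) had 106. The T-box gene Eomes, which acts early in the streak, had 28.3 at 37.8 kb upstream, and Nodal had 59.5 at 1.93 kb upstream. The 15 genes without a summit were Wnt3a, Sox17, Foxc1, Foxc2, Hand1, Gata4, Gata6, Cdx1, Nkx1-2, Cyp26a1, Rspo3, Hes7, Lfng, Ripply2 and Snai2. For orientation, the highest signals at 6 pluripotency genes were 314 at Pou5f1, 292 at Esrrb, 256 at Tfcp2l1, 93.5 at Sox2, 59.6 at Nanog and 57.1 at Klf4. The value of Msgn1 (265) lay among the higher 3, and that of Gsc (118) between the higher 3 and the lower 3.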

How the data were processed

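NANOG ChIP-seq of 2 biological replicates gave the peak lists used. Per the file names and descriptions deposited with them, the authors made relaxed mm10 lists per replicate and on the pool of both, and from these an optimal and a conservative IDR set. The mm10 peaks were called against a control alignment, per the deposited descriptions; the control experiment was not used here. For the aligner, the peak caller and the threshold of the IDR test, the names and values are not given in the sources used here. Read depth is unknown. In the deposited mm10 lists each peak has a signal value, a -log10 of the q-value and a summit offset. Peaks in the deposited mm9 lists carry an enrichment ratio, a -log10 of the p-value and an untransformed q-value. Whether the replicates came from separate cultures was not stated.

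Genes came from RefSeq (GRCm38.p6, the mm10 assembly): of 21900 protein-coding genes, 17492 took their strand from the RefSeq promoter table, 3975 (Mixl1 among them) by symbol from the mm9 annotation, and 433 were left out. Each TSS was set at the 5' boundary of the gene model, and 39 optimal peaks on sequences without such genes were never counted for a gene. A set or replicate shared a peak when regions overlapped by at least 1 bp. Peaks were ranked by signal. Windows, overlaps and nearest genes were checked on simulated summits. Coordinates are 1-based, and mm9 and mm10 coordinates were never converted. Python 3.11.15, NumPy 2.4.6, pandas 2.3.3 and matplotlib 3.10.9 were used. The genes, the 40 further genes and the motifs were chosen with earlier results of these data known, so no set was tested. All 10 genes are named with every optimal summit, and of the 40 the 6 with the highest signal and those without a summit; Eomes and Nodal were added after their values were seen.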

Additional observations from a re-analysis of the deposited data

How the results depend on the processing

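The number of genes with a peak, 7 of 10, was between 5 and 7 in the conservative set, with windows of 10 kb or 100 kb, without the gene body, with any base of the region in place of the summit, with the mm9 series-level list and without either replicate (7 each), but 4 when a summit counted only for its nearest TSS. The 12 summits became 6 in the conservative set, 7 within 10 kb and 5 by nearest TSS, and between 9 and 13 without 1 replicate. The share of all protein-coding genes moved with them, from 48.4% to 33.7% in the conservative set, 25.4% within 10 kb, 67.2% within 100 kb, 44.8% without the gene body, 27.9% by nearest TSS and 45.2% on mm9, and was between 48.5% and 54.0% without 1 replicate. The count of summits with support in both relaxed lists was 11, and became 8 with summits within 100 bp, 9 with the 50000 highest regions of each list and 3 with as many regions as the optimal set holds. Ranking by q-value could not separate the strongest peaks, since 2529 optimal peaks, the high ones of Msgn1 and Gsc among them, share the best q-value. The motif window of 300 bp was chosen after seeing the data and gave a match in 3 of 9 peaks, against 44.8% of all peaks. Without read counts, no error can be put on any signal.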

Other observations

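Of the 12 summits, 3 had a signal at which the optimal set holds few of the pooled regions. Of the pooled relaxed regions with a signal of at least 40, 99.2% are in the optimal set, and this falls to 91.0% from 30 to 40, 53.9% from 20 to 30 and 0.405% below 20. The Gsc summit at 2.25 kb upstream (signal 10.2) is rank 102247 of the 300000 pooled regions, and the lower pair at Wnt3 are ranks 22953 and 60490. The other 9 summits have pooled ranks from 272 to 13932. Why such low regions are in the set was not tested.

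RefSeq promoter sequences (GRCm38.p6, 250 bases before to 50 after the start) were available for 9 of the 10 genes, all but Mixl1. None of the 9 holds the SOX motif (3.66% of all promoters), the ESRRB motif (0.423%) or the KLF motif (3.56%). The Evx1 promoter holds the octamer, found in 1.74% of 32851 promoters, and the homeodomain motif, found in 7.73% and present at Mesp2 as well. The TCF and LEF motif is in the promoters of Mesp1 and Msgn1 (3.73% of all), the T-box motif in that of Mesp1 (1.28%) and the FOXH1 motif in that of Mesp2 (0.855%). No optimal summit lay in any of these promoter windows.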
